A study of Caenorhabditis elegans with 9 samples.

Results

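The genes examined carry symbols used for transcription factors and are among the transcripts enriched in VA motor neurons of the nematode Caenorhabditis elegans. They make up 42 of the 2349 genes that the authors list as higher in sorted wild type VA neurons than in whole worms. Members were taken by symbol from that list: 36 carry 1 of 13 family prefixes (ceh-, hlh-, nhr-, ets-, fkh-, tbx-, zip-, lim-, sox-, egr-, klf-, sem- or ztf- with a number), and zag-1, daf-19, lin-39, mab-5, cfi-1 and unc-62 were added by name. Among the 42, lim-9 and sem-5 match a prefix but encode proteins that are not DNA-binding transcription factors. The list also holds lim-4, which was set aside. All 42 symbols are still current in the Ensembl annotation of WBcel235, which gives the coordinates below.

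Transcription factors bind DNA through family-specific folds and set which genes a cell transcribes. In the worm ventral nerve cord, homeodomain proteins and their cofactors divide the motor neurons into classes, with Hox proteins acting by position along the body. Basic helix-loop-helix (bHLH) proteins are best known for steps from neural precursor to neuron, and nuclear receptors, a family much expanded in nematodes, for responses to small lipophilic molecules and for regulation of metabolism. VA neurons are excitatory, cholinergic motor neurons of the ventral cord that serve backward movement.

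Transcript levels came from 3 libraries of VA neurons and 3 of whole animals, all from synchronized larvae at the L2 stage. VA neurons came from a strain with the reporters pUnc-4::mCherry and pUnc-4C::GFP and were labelled wild type. Red cells without green were sorted, a gate that per the labels also takes AVF neurons. Whole animals were of the strain N2, which carries no such reporters, and were frozen in place of being dissociated and sorted, so cell content, strain and handling cannot be told apart. A further 3 libraries came from VA neurons of unc-4 mutants with the same reporters. None of the 42 genes is among the 214 that the authors list as higher in those mutants, so mutant levels of the members are not analysed here.

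Libraries were made with a SMART-Seq kit for low RNA input and sequenced on an Illumina HiSeq. Levels are in TPM, a transcript's share of its library after adjustment for transcript length, which keeps no depth, so the depth is unknown and no counting interval is given. The labels do not say whether replicates came from separate cultures, so the spread between them, and any p-value from it, may be technical. Library values are given in the order of VA replicates 1, 2 and 3 and whole-worm replicates 2, 3 and 4, and "ratio" means the mean VA TPM divided by the mean whole-worm TPM. In bulk libraries, a larger share of cells of a type and more RNA per cell cannot be told apart. The deposited list holds only genes called higher in VA neurons at a false discovery rate (FDR) under 0.05, so the direction of every member was fixed by that selection, and ratios describe the members and test nothing. The member nearest that threshold was nhr-47, with an FDR of 0.0449 in the authors' deposited table, and genes on the other side are not analysed here. Marker lists were chosen with earlier results of these data known, so their counts describe the sort and test nothing. All 10 of a list of cholinergic motor neuron genes were listed as enriched, with ratios whose median was 45.1. Among them was unc-4, on whose promoter the sort rests. None was listed of the markers of muscle (12), hypodermis (11), intestine (10) or germline (9). The same held for ciliated neurons (10), glutamate and monoamine neurons (9) and coelomocytes and glia (5). A marker that is not listed was only not called higher than in whole worms, and may still be present. Listed were 2 of 7 GABA neuron markers (snf-11 and unc-55) and 3 of 8 touch neuron markers (mec-12, mec-7 and mec-2). The touch neuron markers mec-3, mec-4, mec-10, mec-17 and mec-18 were not listed. Of all protein-coding genes 11.6% were listed. The summed level of the 3 touch markers was 10480, 4584 and 7498 TPM in VA neurons and 507 to 728 TPM in whole worms, and their part in the members' levels was not tested.

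Symbol prefixes differed in how many of their genes were listed. Of 63 annotated ceh- genes 11 were listed (17.5%), of 25 hlh- genes 4 (16%) and of 25 ztf- genes 4 (16%), where 11.6% of all protein-coding genes were. Nuclear receptor genes with the nhr- prefix stood below that background with 14 of 269 (5.20%). Single members came from lim- (1 of 4), sox- (1 of 3) and sem- (1 of 3). The lim- share leaves out lim-4 from both counts, and with it 2 of 5 lim- genes were listed. No gene of ets- (7 annotated), fkh- (9), tbx- (19), zip- (12) or klf- (3) was listed, and the annotation holds no egr- gene. Over all prefixes 36 of 442 genes were listed (8.14%), 37 of 443 (8.35%) with lim-4, and 22 of 173 (12.7%) without nhr-. These shares are descriptions, since annotated genes include many that neither sample may express, and the 5 prefixes with none hold 50 genes. A prefix does not cover its whole family. The ETS gene ast-1, the forkhead gene daf-16 and the bZIP gene cebp-1 lack the prefixes and were listed.

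**Figure D1:**
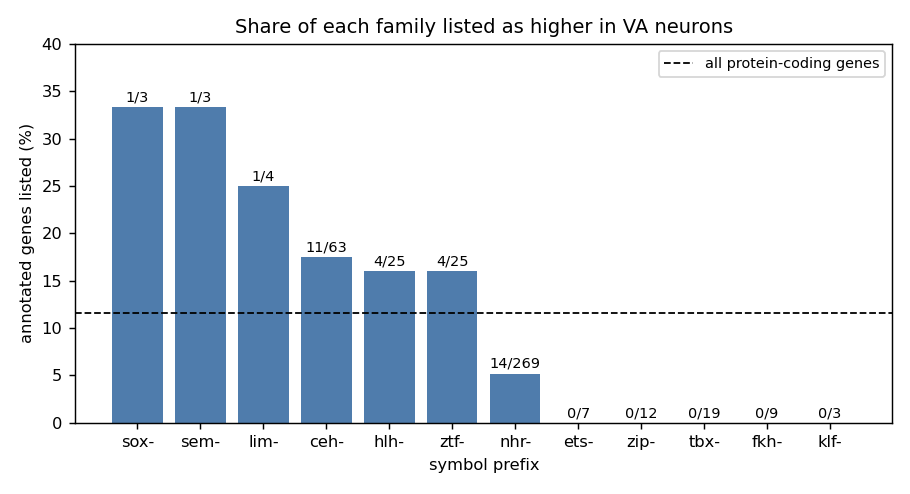
Share of annotated protein-coding genes listed as higher in VA neurons, in percent, for each symbol prefix; the numbers over the bars are listed and annotated genes, and the dashed line is the share of all protein-coding genes (11.6%). Of the prefixes with a listed gene only nhr- (5.20%) lies below the line, and the sox-, sem- and lim- bars show 1 listed gene each, with lim-4 left out; 5 prefixes have no listed gene.

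The members' medians lay near those of the whole list. Their median level was 37.1 TPM in VA neurons and their median ratio 5.94, against 32.7 TPM and 5.18 for all listed genes. A ratio of at least 10 was reached by 13 of the 42 (31.0%, against 28.4% of all listed genes), among them nhr-2, nhr-26 and nhr-189, whose whole-worm values were at or near 0. Every VA library lay above every whole-worm library in 38 of 42 members (90.5%), close to the 91.9% of all listed genes. Summed over the members, the level was 4110, 2412 and 2834 TPM in the VA libraries and 630, 503 and 519 TPM in the whole-worm libraries. The ratio of these sums was 5.66, lower than the 10.7 of all listed genes. The sums of all listed genes include heat stress genes. These reached 51914, 325573 and 18904.5 TPM in VA replicates 1, 2 and 3 and 2971, 1030 and 1041 TPM in whole worms. The 10.7 was not computed without them. The order of single genes spanned a wide range, from unc-62 at a mean of 502 TPM in VA neurons to nhr-26 at 1.19 TPM.

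**Figure D2:**
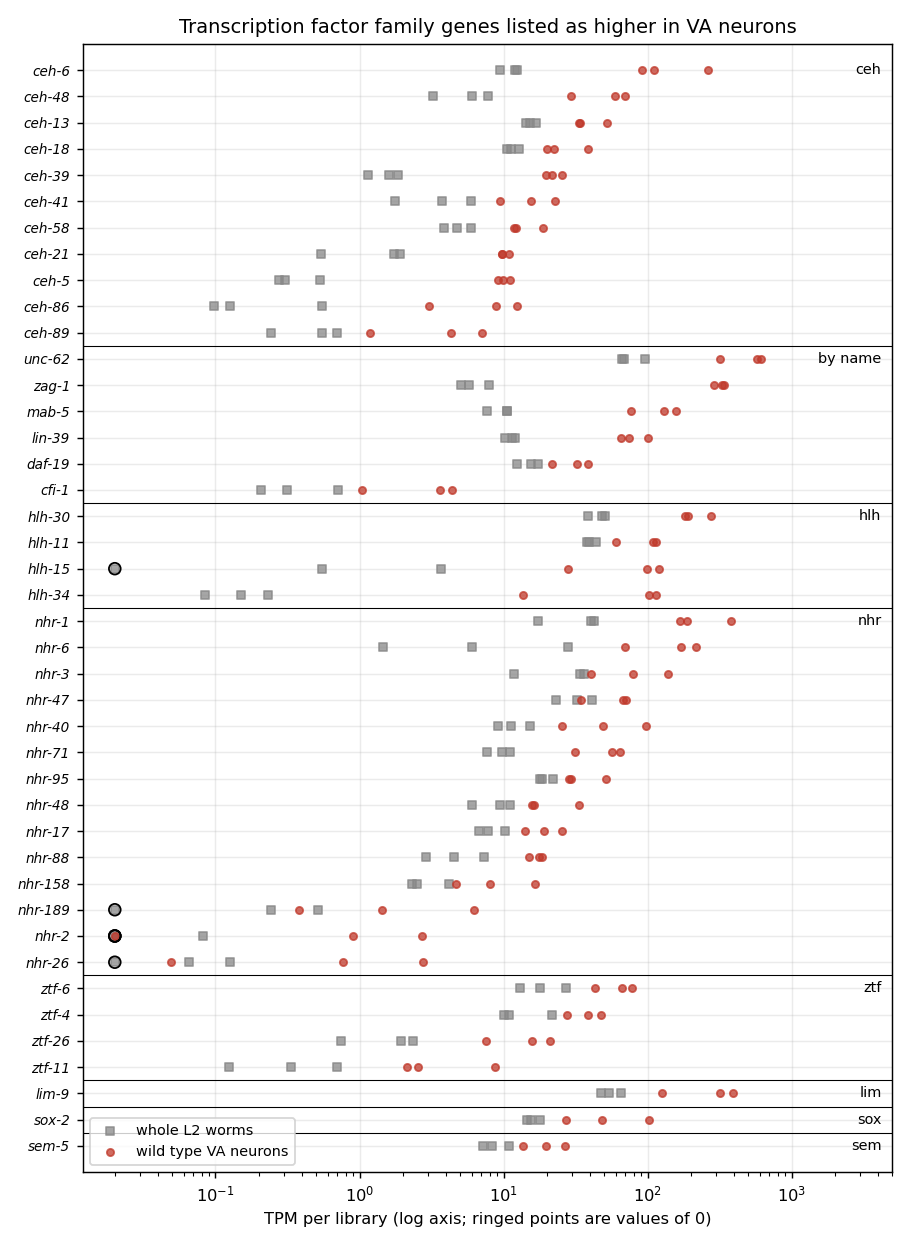
TPM of each of the 42 genes in the 3 wild type VA libraries (circles) and the 3 whole-worm libraries (squares), on a log axis and grouped by symbol prefix; rings mark libraries at 0, drawn at the left. The circles lie to the right of all squares in 38 genes, and the 4 genes in which they overlap are nuclear receptor genes.

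Among the homeodomain genes was zag-1, high in every VA library and low in every whole-worm library. The gene (WBGene00006970, chromosome IV, 3855843 to 3861569) encodes a ZEB-type protein with zinc fingers and a homeodomain that is needed for the differentiation of several neuron classes. It read 337, 289 and 330.4 TPM in VA neurons and 7.93, 5.79 and 5.04 TPM in whole worms, a ratio of 50.97. The mean was 319 ± 25.99 TPM in VA neurons and 6.25 ± 1.498 TPM in whole worms (SD, n = 3 each). The groups were far apart, and the VA libraries agreed within a coefficient of variation (CV, the SD as a share of the mean) of 8.15%. On log2(TPM + 1) the difference was 5.48 ± 0.31 (SE, adjusted p = 4.3e-07 by limma, over genes selected on the same libraries).

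Of the 6 Hox genes of the worm, mab-5, lin-39, ceh-13 and egl-5 were listed, and php-3 and nob-1 were not, a grouping made after the listed genes were known and not tested. UNC-62 is a Meis-type homeodomain protein that acts as a cofactor of Hox proteins, and its gene (V, 4497461 to 4511449) had the highest level of all members. It read 611, 318 and 575 TPM in VA neurons and 96.3, 68.5 and 66.02 TPM in whole worms, a ratio of 6.52, with means of 502 ± 159.9 and 76.9 ± 16.8 TPM (SD, n = 3 each). VA replicate 2 was the lowest, yet far above whole worms, where the gene was also the most abundant member. The Hox gene mab-5 (III, 7776835 to 7783454), which acts in the posterior body, read 157, 130.4 and 77.04 TPM in VA neurons and 10.5, 7.64 and 10.6 TPM in whole worms, a ratio of 12.7. LIN-39 is the Hox protein of the mid-body and takes part in cholinergic motor neuron identity there. Its gene (III, 7528641 to 7536632) read 99.9, 65.6 and 74.6 TPM in VA neurons and 12.1, 10.3 and 11.4 TPM in whole worms, a ratio of 7.101. The anterior, labial-type Hox gene ceh-13 (III, 7555660 to 7558041) lies 19027 bases from lin-39 with no coding gene between them. It was raised less, with 52.4, 33.3 and 34.04 TPM in VA neurons and 15.3, 14.3 and 16.9 TPM in whole worms and a ratio of 2.58. The posterior Hox gene egl-5, which is not among the 42, was at 12.8, 13.3 and 2.95 TPM in VA neurons and 1.08, 0.476 and 0.321 TPM in whole worms.

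Genes of the ONECUT type, whose proteins combine a CUT domain with a homeodomain and which include regulators of pan-neuronal genes, were also listed in number. Of the 7 CUT homeobox genes set out after the list was seen, ceh-48, ceh-39, ceh-41 and ceh-21 were listed and ceh-38, ceh-44 and ceh-49 were not. The pan-neuronal ceh-48 (IV, 6812108 to 6815607) read 59.5, 69.9 and 29.3 TPM in VA neurons and 7.81, 6.02 and 3.23 TPM in whole worms, a ratio of 9.31, with VA replicate 3 at less than the other two. The other three lie side by side on chromosome X and on the same strand, ceh-41 at 1846608 to 1848675, ceh-21 at 1848779 to 1852736 and ceh-39 at 1853874 to 1856172. Between ceh-41 and ceh-21 lie 103 bases, and between ceh-21 and ceh-39 lie 1137 bases and 1 further coding gene. Their levels were unequal. The gene ceh-39 read 25.5, 19.7 and 21.6 TPM in VA neurons and 1.84, 1.605 and 1.15 TPM in whole worms, a ratio of 14.5, and had VA libraries within a CV of 13.3%. Its neighbour ceh-21 read 9.76, 9.78 and 10.97 TPM in VA neurons and 1.73, 1.91 and 0.544 TPM in whole worms, a ratio of 7.303, and ceh-41 22.6, 9.41 and 15.4 TPM in VA neurons and 5.94, 3.75 and 1.77 TPM in whole worms, a ratio of 4.14. As related genes in a row, they may share reads, so the division of signal among them is uncertain.

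Of 3 POU homeobox genes, ceh-6 and ceh-18 were listed and unc-86 was not. The class III gene ceh-6 (I, 8498112 to 8502604) was the most abundant ceh- gene, at 264, 110.2 and 91.3 TPM in VA neurons and 11.9, 9.43 and 12.4 TPM in whole worms. Its ratio of 13.8 fell to 8.95 without VA replicate 1, which held well over the level of the other two libraries. The gene ceh-18, known for its role in gonadal sheath cells, read 38.6, 20.04 and 22.2 TPM in VA neurons and 12.8, 10.5 and 11.2 TPM in whole worms, a ratio of 2.34.

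Some ceh- genes read under 1 TPM in every whole-worm library. The gene ceh-5 (I, 9727169 to 9728034) read 11.1, 9.18 and 9.98 TPM in VA neurons and 0.301, 0.534 and 0.277 TPM in whole worms, a ratio of 27.2 with VA libraries within a CV of 9.64%. The gene ceh-86 (II, 2426366 to 2432072) read 8.87, 12.5 and 3.02 TPM in VA neurons and 0.552, 0.126 and 0.0983 TPM in whole worms. Its ratio of 31.3 rested on whole-worm levels well under 1 TPM and rose to 72.3 without whole-worm replicate 2. The gene ceh-89 read 4.29, 7.12 and 1.19 TPM in VA neurons and 0.551, 0.244 and 0.697 TPM in whole worms, a ratio of 8.44 that fell to 5.50 without VA replicate 2. The last of the 11, ceh-58, was moderate in both, at 18.7, 11.8 and 12.1 TPM in VA neurons and 5.94, 4.72 and 3.86 TPM in whole worms, a ratio of 2.93. In all 11 the VA libraries lay above every whole-worm library.

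All 4 bHLH genes were lowest in VA replicate 2 as deposited, the library in which 57.1% of members and 41.6% of all listed genes were lowest and in which heat stress genes took the largest share of TPM. After rescaling to the total without those genes, 3 of the 4 were, and hlh-30 was lowest in VA replicate 3. The PAS-domain gene hlh-34 (V, 13705967 to 13707395), which others have placed in head interneurons, had the highest ratio of all members, 493. It read 103, 13.7 and 114 TPM in VA neurons and 0.0845, 0.1495 and 0.233 TPM in whole worms, means of 76.8 ± 54.9 and 0.156 ± 0.0745 TPM (SD, n = 3 each). VA replicate 2 was far below the other VA libraries and still far above whole worms. Whether the transcript came from VA neurons or from other sorted cells, such as AVF neurons, was not tested. The ratio rested on whole-worm levels well under 1 TPM, so its size and rank are uncertain. The log2 difference of hlh-34 was 7.78, 5.60 and 3.59 at pseudocounts of 0.1, 1 and 5. That of zag-1 was 5.67, 5.48 and 4.85. The gene hlh-15 (X, 2412953 to 2413377), whose protein resembles the NHLH factors of vertebrate neurons, read 119.9, 27.8 and 99.2 TPM in VA neurons and 3.698, 0.545 and 0 TPM in whole worms. Its ratio of 58.2 was set by the uneven whole-worm libraries, with 302 without whole-worm replicate 2 and 38.8 without replicate 4. The remaining pair was abundant in whole animals too. HLH-30 is the worm TFEB protein, a regulator of autophagy and lysosome genes, and its gene (IV, 4014793 to 4034951) read 276, 183 and 192 TPM in VA neurons and 50.2, 38.4 and 47.9 TPM in whole worms, a ratio of 4.76. The AP-4-type gene hlh-11 read 114, 60.2 and 109.6 TPM in VA neurons and 38.1, 43.8 and 39.4 TPM in whole worms, a ratio of 2.34.

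**Figure D3:**
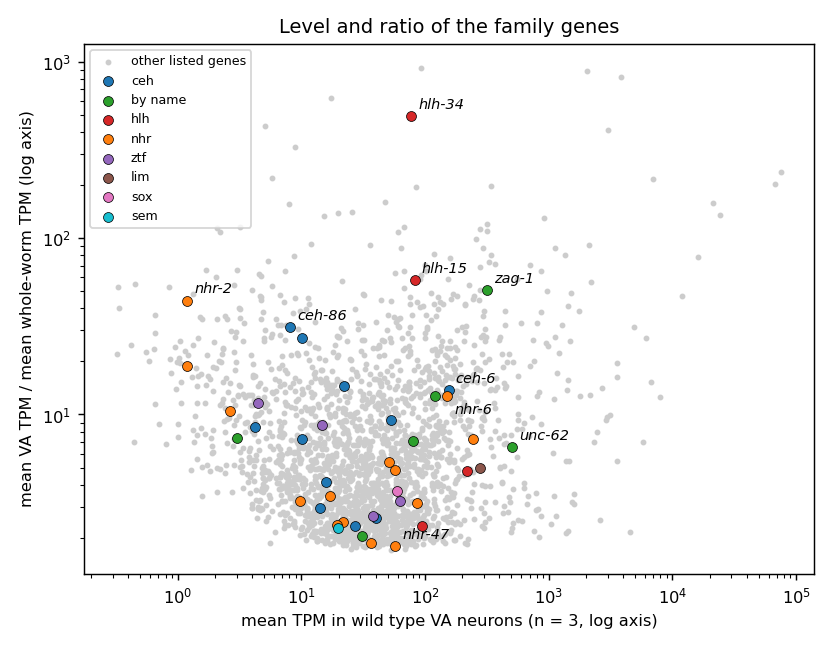
Mean TPM in VA neurons (x, log axis) and ratio of mean VA TPM to mean whole-worm TPM (y, log axis) of the 42 family genes, coloured by prefix, over the other listed genes with a ratio (grey). The family genes are spread through the grey cloud. Of them, hlh-34 (493), hlh-15 (58.2) and zag-1 (50.97) have the highest ratios, and unc-62 (ratio 6.52) has the highest level. The ratio of hlh-34 and those of the 3 nhr- points farthest left rest on whole-worm values near 0.

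Nuclear receptor genes held both abundant members and the least certain ones. The most abundant was nhr-1 (X, 17514063 to 17528197), at 376.6, 167 and 186 TPM in VA neurons and 42.2, 40.5 and 17.4 TPM in whole worms and a ratio of 7.29. NHR-6 is the only NR4A-type receptor of the worm, a class that in mammals includes Nurr1, and its gene (III, 3573581 to 3578771) read 169, 69.9 and 215 TPM in VA neurons and 1.44, 6.08 and 27.9 TPM in whole worms. The whole-worm libraries thus differed more among themselves, relative to their mean, than the VA libraries did, and the ratio of 12.8 rose to 40.2 without whole-worm replicate 4. Both groups were separated in nhr-1 and nhr-6.

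Further nuclear receptor genes were lower in level. The gene nhr-3 read 139, 40.4 and 79.6 TPM in VA neurons and 36.4, 11.9 and 33.9 TPM in whole worms, a ratio of 3.15, with VA replicate 2 just above whole-worm replicate 2. The gene nhr-40, known for a part in muscle development, read 97.4, 49.2 and 25.3 TPM in VA neurons and 11.2, 9.08 and 15.2 TPM in whole worms, with a ratio of 4.84 that fell to 3.14 without VA replicate 1. The gene nhr-71 read 64.6, 31.4 and 56.8 TPM in VA neurons and 11.1, 7.63 and 9.76 TPM in whole worms, a ratio of 5.36. These 3 lie on chromosome X and were separated. The genes nhr-95, nhr-48, nhr-17, nhr-88 and nhr-158 had means from 9.74 to 36.3 TPM in VA neurons and ratios of 1.87, 2.46, 2.36, 3.45 and 3.23, the last at 2.10 without VA replicate 1. Of these, nhr-88 was the most even in VA neurons, at 18.6, 14.9 and 17.5 TPM in VA neurons and 2.901, 4.55 and 7.33 TPM in whole worms, and nhr-158 came closest to overlap, with 16.6, 4.65 and 8.02 TPM in VA neurons and 2.52, 2.32 and 4.21 TPM in whole worms.

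In 4 nuclear receptor genes, and in no other member, the libraries of VA neurons and whole worms overlapped. The gene nhr-47 read 67.2, 71.2 and 34.4 TPM in VA neurons and 40.8, 32.5 and 22.97 TPM in whole worms, the smallest ratio of all members (1.79). The gene nhr-189 read 6.19, 1.42 and 0.3796 TPM in VA neurons and 0.516, 0.244 and 0 TPM in whole worms, nhr-2 0.901, 2.697 and 0 TPM in VA neurons and 0, 0.0813 and 0 TPM in whole worms, and nhr-26 0.765, 2.77 and 0.0487 TPM in VA neurons and 0, 0.125 and 0.06504 TPM in whole worms. The last 3 were each carried by part of the VA libraries and were at or near 0 in whole worms, so their ratios are not used one by one. The gene nhr-26 overlaps ugt-50, a listed gene of the opposite strand at a mean of 402 TPM in VA neurons, and 340 of its 3530 annotated exon bases (9.63%) are also exon bases of ugt-50. Whether counting used strand is not stated, so how reads from the shared bases were assigned is unknown. Smaller shares of exon bases overlap an exon on the opposite strand in hlh-15, cfi-1, nhr-6, nhr-47 and ztf-4 (1.31% to 4.78%), and 12.2% do in ceh-5. On the same strand, nhr-40 shares 1.55%, nhr-17 4.19% and nhr-26 2.04% of exon bases with a neighbour. The gene hlh-34 overlaps another gene's span but shares no exon base with it. In the fit by limma on log2(TPM + 1), 38 of 42 members passed an adjusted p under 0.05, where 95.1% of all listed genes tested did. The 4 that missed were the same genes, with differences of 0.79 ± 0.38 (SE, adjusted p = 0.0596) for nhr-47, 1.22 ± 0.57 (0.0564) for nhr-189, 0.90 ± 0.51 (0.107) for nhr-2 and 0.85 ± 0.51 (0.124) for nhr-26 by limma. Since all genes were selected on these libraries, the fit only sets a difference beside the spread between libraries and is no further evidence for it. A further 8 members passed with all libraries and missed without 1 of them by limma. Without VA replicate 1 these were nhr-3, nhr-48, nhr-95 and nhr-158, and without whole-worm replicate 2 nhr-95, nhr-158, sem-5 and cfi-1. Without whole-worm replicate 3 they were nhr-3, nhr-17, nhr-95, nhr-158, daf-19 and sem-5, and without whole-worm replicate 4 nhr-48, nhr-95 and daf-19. Their highest adjusted p by limma ran from 0.0526 for nhr-17 to 0.1002 for nhr-95. Without VA replicate 3 all 42 members passed.

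The positions of the listed nuclear receptor genes differed from those of the family. Of the 269 annotated nhr- genes 62.1% lie on chromosome V and 8.55% on X, while of the 14 listed genes 4 (28.6%) lie on V and 7 (50%) on X. Chromosome V holds 16.01% of all listed genes, against 24.99% of protein-coding genes, and 6 of the 42 members (14.3%). Of all listed genes 20.9% lie on X, against 13.7% of protein-coding genes, and 15 of the 42 members (35.7%) do. A lower share on V and a higher share on X were thus also seen over the whole list, and are not particular to nuclear receptor genes. Among the ceh- genes 5 of 11 listed (45.5%) lie on X, against 28.6% of the family, and 3 of those 5 are the ONECUT neighbours. These shares were not tested.

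**Figure D4:**
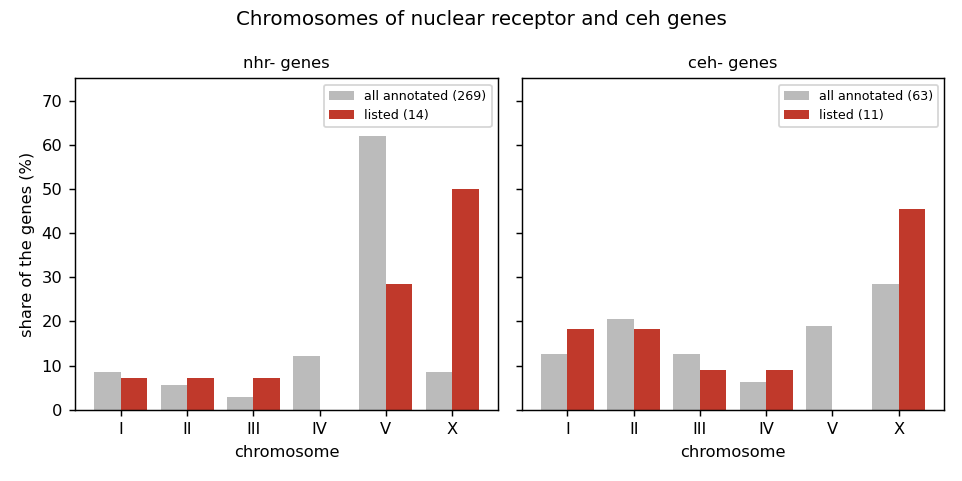
Share, in percent, of all annotated genes (grey) and of listed genes (red) of the nhr- (left) and ceh- (right) prefixes on each chromosome; the legends give the number of genes. The shares differ most for nhr- on V (62.1% of annotated, 28.6% of listed) and X (8.55% and 50%). Over all listed genes, which are not drawn, the share was also lower on V and higher on X than over all protein-coding genes.

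Zinc finger genes of the ztf- prefix were of low to middle level. ZTF-11 belongs to the MYT1 family, known in worms for promoting neurogenesis, and its gene (I, 9904303 to 9910545) read 8.67, 2.56 and 2.13 TPM in VA neurons and 0.6999, 0.333 and 0.124 TPM in whole worms. Its ratio of 11.5 was 6.09 without VA replicate 1 and 19.5 without whole-worm replicate 2. The gene ztf-26 read 15.7, 7.52 and 20.96 TPM in VA neurons and 2.35, 0.738 and 1.95 TPM in whole worms, a ratio of 8.77. The genes ztf-6 and ztf-4 were higher in both groups, ztf-6 at 78.1, 42.8 and 66.2 TPM in VA neurons and 27.1, 17.98 and 13.03 TPM in whole worms (ratio 3.22) and ztf-4 at 47.2, 38.5 and 27.7 TPM in VA neurons and 21.6, 10.1 and 10.8 TPM in whole worms (ratio 2.66). All 4 were separated.

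Of the remaining prefixes, sox-2 (X, 7458280 to 7463736) encodes a SoxB-type HMG box protein tied to neural progenitors. It read 102, 26.9 and 48.03 TPM in VA neurons and 15.5, 14.6 and 17.8 TPM in whole worms, and its ratio of 3.69 fell to 2.35 without VA replicate 1. Not every prefix stands for a DNA-binding protein. LIM-9 is a protein of LIM domains without a homeodomain, related to the FHL proteins of muscle, and its gene (I, 9181810 to 9220728) read 390.1, 319 and 126 TPM in VA neurons and 65.7, 54.2 and 47.4 TPM in whole worms, a ratio of 4.99. SEM-5 is the worm GRB2, an adaptor of receptor tyrosine kinase signalling, and its gene read 26.6, 19.6 and 13.6 TPM in VA neurons and 7.18, 8.29 and 10.9 TPM in whole worms, a ratio of 2.27.

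The last 2 genes taken by name differed in level. DAF-19 is the RFX factor of ciliated sensory neurons, with further isoforms in other neurons. Its gene (II, 10157520 to 10169346) read 38.3, 32.1 and 21.7 TPM in VA neurons and 17.4, 15.4 and 12.3 TPM in whole worms, a ratio of 2.04, while none of 10 markers of ciliated neurons was listed. CFI-1 is an ARID3-type protein that maintains the identity of several neuron classes, and its gene (I, 9993906 to 9999928) was low, at 4.41, 3.61 and 1.04 TPM in VA neurons and 0.207, 0.315 and 0.709 TPM in whole worms. Its ratio of 7.36 rose to 11.6 without whole-worm replicate 4.

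The VA libraries differed from each other in a way that touched many members. As deposited, VA replicate 1 was the highest VA library in 32 of 42 members (76.2%, against 62.9% of all listed genes), and replicate 2 the highest in 6 and the lowest in 24 (57.1%, against 41.6%). The 10 listed genes of a heat stress list took 5.19%, 32.6% and 1.89% of all TPM in VA replicates 1, 2 and 3, and 0.103% to 0.297% in whole worms. As TPM shares a fixed total, the levels were also set against the total without those genes. VA replicate 1 was then the highest VA library in 21 members (869 of the 2349 listed genes) and replicate 2 in 18 (1153 of 2349). Replicate 2 was then the lowest VA library in 12 members and replicate 3 in 29 (69.0%, against 69.1% of all listed genes). After that rescaling hlh-34 read 108, 20.3 and 116, hlh-15 126, 41.2 and 101.1, and nhr-6 179, 103.6 and 219 in VA replicates 1, 2 and 3. In these genes VA replicate 2 stayed the lowest. By contrast lim-9 read 411, 472 and 129 and ceh-48 62.7, 103.7 and 29.9, with VA replicate 3 the lowest, and zag-1 read 355, 428 and 337. The 38 separated members stayed 38 on the rescaled values. The rescaling raised every VA library more than any whole-worm library, so no separated member could be lost by it. The part of the heat stress genes in these differences was not tested further.

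**Figure D5:**
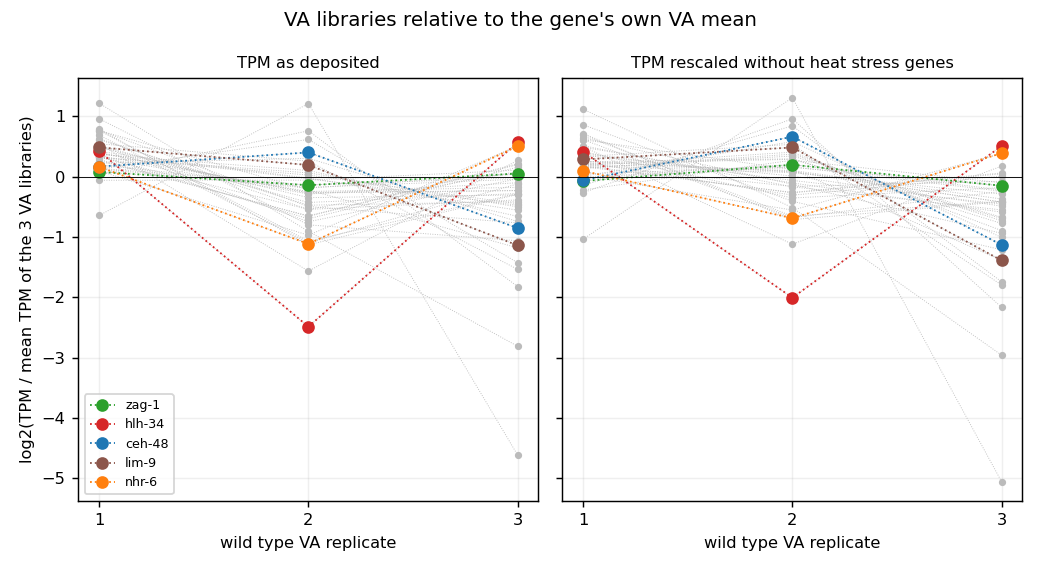
Level of each family gene in the 3 VA libraries relative to its own mean over them (log2), as deposited (left) and rescaled to the total without heat stress genes (right); dotted lines only join the points of 1 gene, and nhr-2, at 0 in 1 library, is left out. The marked genes are zag-1, near 0 throughout, hlh-34 and nhr-6, lowest in replicate 2, and ceh-48 and lim-9, lowest in replicate 3.

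Other transcription factors were drawn from lists of family genes without a prefix and from a list of neuronal regulators. These lists were chosen with earlier results of these data known. Their counts were not tested, and of all protein-coding genes 11.6% were listed. Homeobox genes were listed in 8 of 31 cases (25.8%), with unc-4 itself at 1311, 936 and 1129 TPM in VA neurons and 14.6, 12.4 and 11.3 TPM in whole worms, a level the sort on its promoter bears on. The others were unc-42, zfh-2, lin-11, tab-1, cog-1, egl-5 and ttx-3, with ratios from 7.88 to 16.8. Among them unc-42 read 146, 44.7 and 155 TPM in VA neurons and 15.9, 13.6 and 14.4 TPM in whole worms, with VA replicate 2 the lowest as in hlh-34, and the groups overlapped in ttx-3. Of 25 further zinc finger genes 6 were listed, bnc-1, pag-3, hbl-1, lin-29, tra-1 and egrh-1, and bnc-1 read 1180, 874 and 875 TPM in VA neurons and 14.3, 17.8 and 26.4 TPM in whole worms. Of a list of 13 neuronal regulators 6 were listed, of which ztf-11 is among the 42 members and ast-1 is also on the ETS list; the highest was the COE-type factor unc-3 at 946, 693 and 471 TPM in VA neurons and 12.5, 7.33 and 9.85 TPM in whole worms. Nuclear receptor genes without the prefix were listed in 2 of 6 cases (fax-1 and unc-55) and bHLH genes in 2 of 16 (hif-1 and aha-1). Forkhead genes were listed in 1 of 6 cases (daf-16), ETS genes in 1 of 2 (ast-1), and T-box and HMG genes in 0 of 2 each. Of the 17 matched genes of a bZIP list 1 was listed (cebp-1), and that list also holds cnc-1, a gene outside the family. The VA and whole-worm libraries overlapped in ast-1, at 152, 18.7 and 91.5 TPM in VA neurons and 21.9, 29.4 and 40.2 TPM in whole worms, and also in unc-55 and egrh-1, and were separated in daf-16 and cebp-1. By level, zag-1 and unc-62 stood below unc-4, bnc-1 and unc-3 in each VA library, except that unc-62 stood above unc-3 in VA replicate 3.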

How the data were processed

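The 2 deposited tables were used. Per the file headers they give TPM for each library, the authors' mean TPM per group, a fold change and an FDR p-value per gene. Tests on the tables showed that they hold only genes with a fold above 1 and an FDR under 0.05, and how the authors computed the fold ratio and the p-value is not given in the sources used here. The genome build is WBcel235 per the submitters' processing notes; aligner and counter are not given in the sources used here. Of 2349 gene IDs 2337 were found in the Ensembl annotation.

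From the deposited TPM values, differences of log2(TPM + 1) were fitted with limma 3.58.1 (trend) in R 4.3.3 over the whole table. Genes whose group means were both under 1 TPM were left out, and p-values were adjusted by the Benjamini-Hochberg method. The fit was run on simulated data in which most genes did not differ. Almost every gene of the deposited list does, so that run gives no error rate for these data. Members, lists and tests were chosen with earlier results of these data known, and the Hox, CUT and POU groupings after the listed genes were seen. Library values are printed for up to 5 members per prefix by level, for the 2 of highest ratio, for the 6 genes taken by name and for members whose groups overlap; further members were named after their values were seen. Alternatives were other pseudocounts, no filter, no trend, a replicate block, each library left out, a level minimum and TPM rescaled without heat stress genes. Replicate numbers 2 and 3 occur in both groups, but libraries of the same number did not deviate together (r = 0.068 and -0.0137 across genes), so the numbers were not taken as pairs.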

Additional observations from a re-analysis of the deposited data

How the results depend on the processing

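Of the 42 members, 39 passed limma at a pseudocount of 0.1, 38 at a pseudocount of 5, 38 with no filter on low values and 39 without the trend, against 38 as reported. With 1 library left out, 32 to 42 passed. With the replicate block, possible only for replicate numbers 2 and 3, 25 of 41 passed, and 23 of 41 passed in the same libraries unblocked, a comparison added after seeing the data, so fewer libraries lower the count without the block too. Over all listed genes 1589 of 2323 passed with the replicate block and 1515 unblocked, and 1899 to 2247 with 1 library left out. No member's difference changed direction in the settings where it was tested, and over all listed genes 1 passed as lower in VA neurons, without VA replicate 2. A stricter reading of the authors' deposited table (FDR under 0.001 and fold of at least 4) kept 25 members (59.5%, against 59.6% of all listed genes). Separated members numbered 38 to 42 with 1 library left out, 35 of 36 at a mean of at least 5 TPM, and 38 after rescaling, while the median ratio was 4.38 to 6.27, 4.80 and 6.70. Neither leaving out a library nor the rescaling can lower the number of separated members, so those counts test nothing. The rescaling can also only raise the ratios. Planned fits of the unc-4 mutant table were not run, as no member is in it. Planned promoter and protein descriptions were not made, as no such sequences were used here. TPM keeps no depth, so members under 5 TPM cannot be given a counting error.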

Other observations

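The genes that the authors' deposited table lists as higher in unc-4 mutant VA neurons include other genes with the same prefixes. By the authors' fold these were ceh-12 (96.95), zip-8 (48.7), ceh-24 (35.4), ceh-31 (25.8), lim-4 (19.7), hlh-32 (16.02), lim-7 (8.18), ceh-34 (7.98) and sem-4 (5.27). CEH-12 is an HB9-type homeodomain protein known as a target that UNC-4 represses in VA neurons. Both lists share the wild type VA libraries.

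The listed genes whose log2(TPM + 1) over the 6 libraries was most like that of zag-1 were tag-68 (Pearson r = 0.9999), K07H8.2 (0.9997) and unc-4 (0.9993). For unc-62 they were T24B8.3 (0.9995), rpn-11 (0.9992) and F40F4.7 (0.9990). Because the groups lie apart in almost every listed gene, r is high throughout, and these values only order the genes.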
